A study of Oryctolagus cuniculus with 6 samples.

Results

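Genes of the differentiated corneal epithelium were examined in primary limbal stem cells (LSCs) grown from rabbit limbal explants. The list held 5 genes chosen by name, the corneal keratins KRT3 and KRT12 and the abundant corneal proteins ALDH3A1, TKT and CLU. Of these, 3 (KRT3, TKT and CLU) were matched to a row of the 22190 genes and all 3 passed the filter on low counts. KRT12 was not matched to a row by its symbol or by its RefSeq identifier. ALDH3A1 was not matched by symbol and had no entry under that symbol in the RefSeq genes consulted. Neither gene was analysed here. There were 3 RNA-seq libraries of fresh and 3 of preconditioned cells. In the fresh group, the limbus was taken from corneas that had not been frozen, with no IL-1β. In the preconditioned group, intact corneas were frozen in a medium with dimethyl sulfoxide, serum and 10 ng/mL IL-1β, an inflammatory cytokine, and held in liquid nitrogen for 7 days before thawing. Explants of both groups were then cultured in keratinocyte medium, and the RNA came from the cells that grew out. Freezing and IL-1β were given together, so that their effects cannot be told apart here, and neither the rabbits' strain and age nor the animal behind each library is given in the sources used here. P values therefore measure the spread between these libraries, which may be partly technical.

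The corneal epithelium renews itself from stem cells in the basal layer of the limbus, the rim between cornea and conjunctiva. As their progeny move centrally and upward, they switch on KRT3, a type II keratin that pairs with the type I keratin KRT12 in the filaments of differentiated corneal cells, and KRT3 is widely used as the marker of that state. The cornea also accumulates a few metabolic enzymes to very high levels, which have been called corneal crystallins by analogy with the proteins of the lens. Transketolase (TKT), of the non-oxidative branch of the pentose phosphate pathway, and aldehyde dehydrogenases such as ALDH3A1 and ALDH1A1 are the best known of them. Clusterin (CLU) is a secreted chaperone and regulator of complement that is abundant at wet epithelial surfaces and is not an enzyme.

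The libraries had 31952352 to 34327534 counts on genes, and libraries of one group differed from each other by more than sampling noise. Levels below are CPM, a gene's share of the library's counts, scaled by edgeR's TMM factors when 1 gene is compared between libraries, and the deposited FPKM, which also divides by gene length, when different genes are compared. A call needed both an adjusted p (Benjamini-Hochberg, edgeR's quasi-likelihood test) no higher than 0.05 and a log2 fold change of 1 or more in either direction, and 344 of 15029 tested genes (2.29%) were called. At the same cutoffs DESeq2, used as an alternative, called 1190 genes. How many of all tested genes had an unadjusted p under 0.05 was not counted. List counts at that unadjusted cutoff below therefore have no background share to be read against. Epithelial markers were abundant in all 6 libraries. KRT5, the basal type II keratin, had 7337 to 11740 CPM, and a row described as keratin 14 without a gene symbol (LOC100344686) had 5509 to 10125 CPM. TP63, the transcription factor of epithelial stem cells, had 226 to 246 CPM in fresh and 112 to 183 CPM in preconditioned libraries, whereas KRT15, a keratin of the limbal basal layer, had at most 9.71 CPM.

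TKT fell in the preconditioned group, KRT3 had a lower mean but a wide spread between libraries and did not pass the test, and CLU showed no detectable difference. TKT fell 2.08-fold and was the only 1 of the 3 genes to be called. KRT3 averaged 1342 ± 1171 CPM in fresh and 579 ± 299 CPM in preconditioned cultures (SD, n = 3 each). CLU was among the 9 genes with the highest FPKM in every library of both groups. Thus 1 of 3 members was called lower, against 1.2% of all tested genes. In such bulk cultures, fewer cells of a type and less RNA per cell cannot be told apart.

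**Figure D1:**
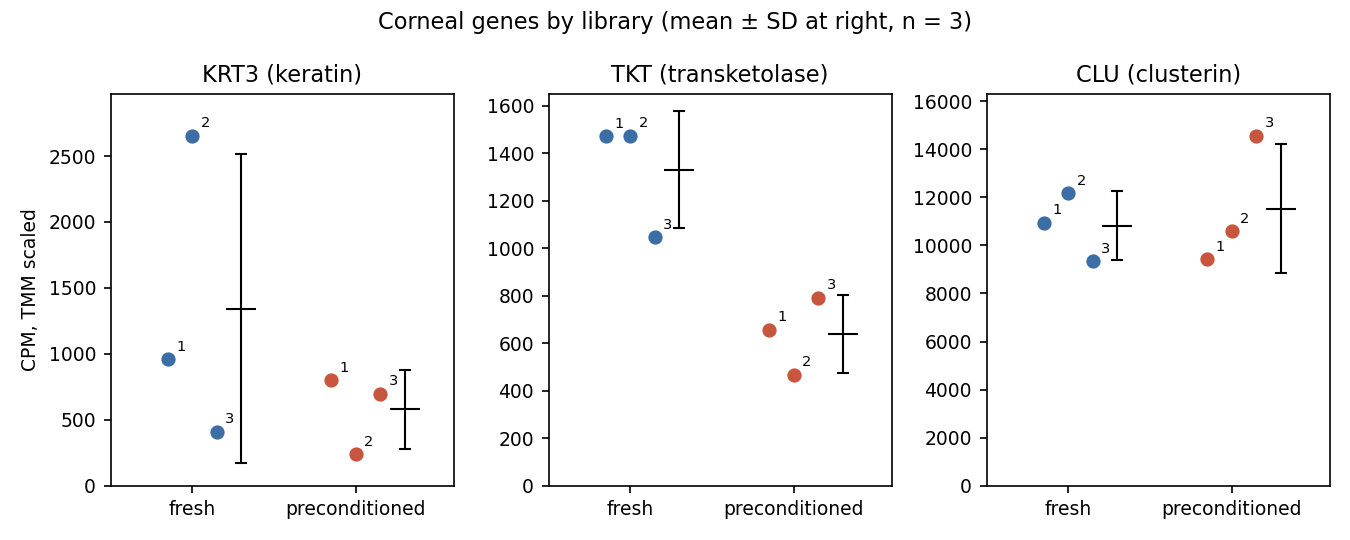
TMM-scaled CPM of KRT3, TKT and CLU in each of 3 fresh (blue) and 3 preconditioned (red) libraries, numbered by replicate, with the mean ± SD (n = 3) beside each group. The TKT groups are separate, from 468 to 792 CPM against 1045 to 1474 CPM, whereas the groups overlap for KRT3 and CLU.

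TKT carries sugar fragments between phosphates in the branch that joins the pentose phosphate pathway to glycolysis. It had 1472, 1474 and 1045 CPM in fresh replicates 1, 2 and 3, and 657, 468 and 792 CPM in preconditioned replicates 1, 2 and 3. Every preconditioned library lay below every fresh library, and the groups were separate in this direction for 18.8% of all tested genes and in either direction for 36.7%. The fresh mean was 1330 ± 247 CPM and the preconditioned mean 639 ± 163 CPM (SD, n = 3 each). The log2 fold change was −1.06 (standard error, SE, 0.23, 95% interval −1.59 to −0.52, adjusted p = 0.048 in edgeR), which passed both cutoffs narrowly. The exact, 2-sided permutation p was 0.1, the smallest that 3 libraries against 3 allow. Among all genes, TKT was 101st to 144th by FPKM in the fresh libraries and 216th to 382nd in the preconditioned libraries. The call was lost when any of 5 libraries was left out, with log2 fold changes of −1.24 to −0.87 and adjusted p values of 0.078 to 0.16 from edgeR, and it stood without preconditioned replicate 1 (−1.09, adjusted p = 0.036).

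KRT3, the keratin stained in the study as the marker of differentiated cells, had 961, 2655 and 409 CPM in fresh replicates 1, 2 and 3. In preconditioned replicates 1, 2 and 3 it had 801, 239 and 697 CPM. The highest value belonged to fresh replicate 2 and the lowest to preconditioned replicate 2, but 2 of the 3 preconditioned libraries lay inside the range of the fresh group. Fresh libraries differed by up to 6.49-fold and preconditioned libraries by up to 3.34-fold. The log2 fold change was −1.21 with an SE of 0.72 (95% interval −2.94 to 0.51, adjusted p = 0.30 in edgeR). The interval runs from a level 7.66-fold lower to 1.43-fold higher in the preconditioned group, and so includes both a large fall and no change. Most of the difference rested on fresh replicate 2, without which the log2 fold change was −0.25 (adjusted p = 0.83). Without fresh replicate 3 it was −1.65 (adjusted p = 0.19). The within-group SD of KRT3 on the log2 scale was 1.17, larger than that of 98.1% of the 2083 genes with a mean of at least 100 CPM, whose median SD was 0.17. That of TKT was 0.34 and that of CLU 0.27.

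CLU had 10942, 12186 and 9336 CPM in fresh replicates 1, 2 and 3. In the preconditioned replicates it had 9429, 10593 and 14574 CPM. The groups overlapped, and only preconditioned replicate 3 lay outside the fresh range. The log2 fold change was 0.09 (SE 0.20, 95% interval −0.37 to 0.55, adjusted p = 0.78 in edgeR), so that a change beyond 1.47-fold higher or 1.29-fold lower lies outside the interval. CLU took 0.909% to 1.39% of all counts on genes and was the 2nd to 9th gene by FPKM in the 6 libraries.

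On the FPKM scale, which allows genes to be compared, CLU was the highest of the 3 members in every library, with 5089 to 7751 FPKM. It was 8.67-fold to 10.4-fold above TKT in the fresh libraries and 16.7-fold to 26.4-fold above it in the preconditioned libraries. TKT and KRT3 were neighbours whose order was not fixed. KRT3 was above TKT in fresh replicate 2 and preconditioned replicate 1 and below it in the other 4 libraries, and the ratio of KRT3 to TKT was 0.869 ± 0.687 in fresh and 0.797 ± 0.324 in preconditioned libraries (SD, n = 3 each; exact, 2-sided permutation p = 1).

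**Figure D2:**
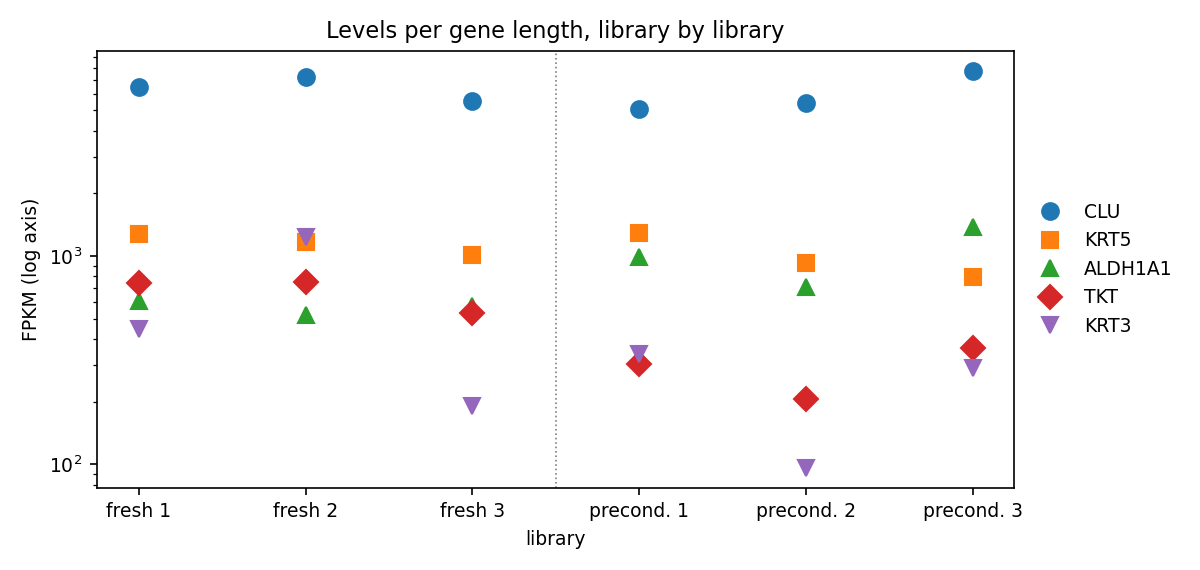
FPKM on a log axis for CLU, TKT and KRT3 with KRT5 and ALDH1A1 for scale, 1 point per gene in each of the 6 libraries. CLU is highest throughout, and ALDH1A1 lies below TKT in 2 of 3 fresh libraries and 3.26-fold to 3.83-fold above it in the preconditioned libraries.

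KRT3 was next set against other keratins. Of 24 listed keratins, 18 were matched to a row and 16 were tested, and none was called by edgeR or by DESeq2, while 2 (KRT8 and KRT10) had an unadjusted p under 0.05 in edgeR. Their median log2 fold change was 0.19 and that of all tested genes 0.01, with a range from −1.21 for KRT3 to 1.46 for KRT4, a keratin of conjunctival and other mucosal epithelia. KRT3 made up 5.17%, 12.1% and 2.49% of the FPKM summed over 21 keratin rows in fresh replicates 1, 2 and 3. In preconditioned replicates 1, 2 and 3 its share was 3.0%, 1.18% and 4.48%. KRT5 had a log2 fold change of −0.04 (SE 0.20). The ratio of KRT3 to KRT5 was 0.348, 1.06 and 0.189 in the fresh libraries and 0.264, 0.104 and 0.368 in the preconditioned libraries. The groups overlapped for this ratio too (exact, 2-sided permutation p = 0.50, adjusted p = 0.56 over 10 ratios), which needs no scaling between libraries. KRT19, found in limbal and conjunctival epithelium, had 1689 to 3870 CPM in fresh and 1401 to 3448 CPM in preconditioned libraries, and KRT7, a conjunctival keratin, had 522 to 955 and 388 to 1200 CPM.

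A pair of further keratin rows without a symbol were chosen after their values were seen. LOC100348136, described as similar to keratin 3, neighbours KRT3 in the RefSeq annotation of the rabbit assembly mOryCun1.1. It had 338, 767 and 107 counts in fresh replicates 1, 2 and 3 and 239, 90 and 191 counts in preconditioned replicates 1, 2 and 3, or 0.715% to 1.2% of the KRT3 counts. Whether reads were shared between these similar genes was not tested. LOC100339421, described as type I keratin 25, had 82.5, 237 and 142 CPM in fresh replicates 1, 2 and 3 and 104, 10.2 and 32.1 CPM in preconditioned replicates 1, 2 and 3. The groups overlapped, with a log2 fold change of −1.66 (SE 0.81, adjusted p = 0.21 in edgeR). In mOryCun1.1 the identifier of this row and that of KRT12 lie in the same run of type I keratins as separate entries. The annotation used for the counts is not named, so that which keratin the row stands for is not settled, and it was not taken as KRT12.

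The spread of KRT3 was compared with other genes of corneal epithelial differentiation. Of 9 such genes tested, AQP5, LYPD2 and KRT78 were, like KRT3, highest in fresh replicate 2, and SLURP1, DSG1 and SPINK7 were highest in preconditioned replicate 1. Over all tested genes, 15.4% were highest in fresh replicate 2 and 14.5% in preconditioned replicate 1. AQP3, a more abundant water channel named after its values were seen, had 1365, 1199 and 1549 CPM in the fresh replicates. In the preconditioned replicates it had 1169, 677 and 653 CPM, without overlap but short of the cutoffs (log2 fold change −0.72, SE 0.24, unadjusted p = 0.021, adjusted p = 0.11 in edgeR). AQP5, a water channel of the corneal epithelium, had 1.71, 14.3 and 1.37 CPM in fresh replicates 1, 2 and 3 and 11.5, 2.01 and 5.56 CPM in the preconditioned replicates. KRT78 had 72.4, 152 and 55.5 CPM in the fresh and 141, 69.9 and 79.4 CPM in the preconditioned replicates. For both genes the mean was nearly the same in the 2 groups, with log2 fold changes of 0.14 (SE 1.01) and 0.05 (SE 0.43). CDKN1A, an inhibitor of the cell cycle, was the 1 gene called among the 9, with a log2 fold change of 1.18 (SE 0.22, adjusted p = 0.039).

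The genes with the most similar pattern to each member were taken by the root mean square difference of centred log2 CPM over the 6 libraries, among 8316 other genes with a symbol and a mean of at least 10 CPM. For KRT3 they were TSPAN1, ANGPTL7 and SFRP1, at 0.496, 0.506 and 0.520. For TKT they were DDX31, POMK and SETD6, at 0.073, 0.175 and 0.180. For CLU, GRB7 and CAMK2N1 were 2 of the 3 nearest, at 0.044 and 0.046. This distance is not scaled to a gene's own spread, which was widest for KRT3, so that the distances of the 3 genes cannot be compared with each other.

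**Figure D3:**
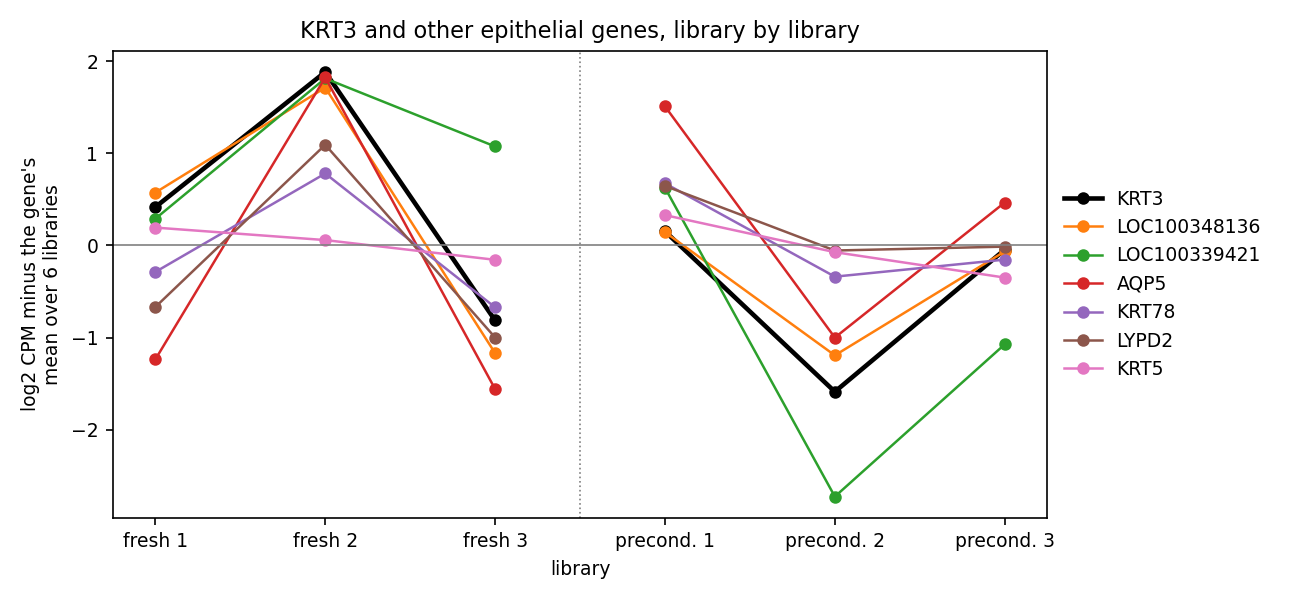
Log2 CPM of KRT3 and 6 other epithelial genes, each centred on its own mean over the 6 libraries, with the libraries on the horizontal axis. Lines join the libraries of a group, which have no order. KRT3, LOC100348136, LOC100339421, AQP5, KRT78 and LYPD2 are highest in fresh replicate 2, and KRT5 stays within 0.5 of its mean. AQP5, KRT78 and LYPD2 are the 3 of 9 tested differentiation genes with that peak. The rest, among them 3 that are highest in preconditioned replicate 1, are not drawn. Both rows without a symbol were chosen after their values were seen.

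TKT was next compared with the other enzymes of its pathway, to see which of them changed with it. Of 12 listed genes, 11 were matched to a row and 9 tested. TKT was the only 1 of the 9 to be called at both cutoffs, and the median log2 fold change was −0.10. At the adjusted p alone, 5.08% of all tested genes passed, 2.2% lower and 2.88% higher. TKT was the 1 member to pass it, and TALDO1 passed it with a higher level in the preconditioned group. TALDO1 is transaldolase, which works beside TKT in the non-oxidative branch. It had 218, 243 and 211 CPM in the fresh replicates and 301, 326 and 338 CPM in the preconditioned replicates. Its log2 fold change was 0.52 (SE 0.11, adjusted p = 0.046). The adjusted p was above 0.05 with the replicate number as a block (0.12), with library size alone (0.078), in both limma-trend fits (0.067) and without any 1 of 5 libraries (0.11 to 0.16), and it was 0.016 without preconditioned replicate 1. PGD, phosphogluconate dehydrogenase of the oxidative branch, had 163 to 172 CPM in fresh and 154 to 167 CPM in preconditioned libraries, with a log2 fold change of −0.07 (95% interval −0.30 to 0.15).

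The ratio of TKT to TALDO1 in FPKM was 4.02, 3.62 and 2.95 in fresh replicates 1, 2 and 3. It was 1.30, 0.855 and 1.40 in preconditioned replicates 1, 2 and 3. These groups had to be separate too, since TKT was lower and TALDO1 higher in every preconditioned library. The ratio was lower by 1.6 on the log2 scale, and by 1.38 to 1.73 after leaving out any 1 library. The ratio of TKT to PGD was 5.69 to 8.45 in fresh and 2.86 to 4.78 in preconditioned libraries, again without overlap. For TKT to PGD the exact, 2-sided permutation p was 0.1, the smallest possible, and 0.25 when adjusted over 10 ratios. These ratios were chosen after the values were seen and need no scaling between libraries.

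**Figure D4:**
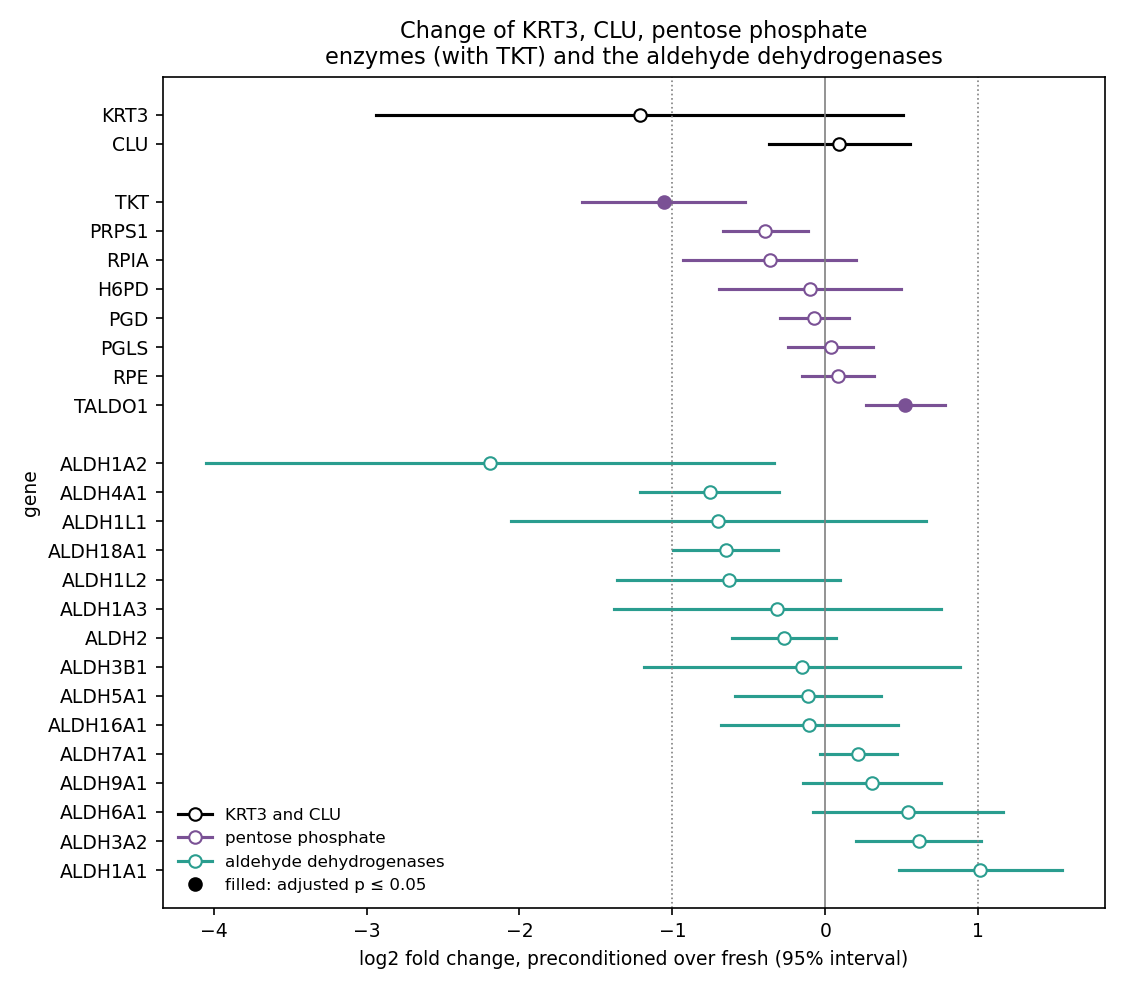
Log2 fold change of preconditioned over fresh with its 95% interval from edgeR (n = 3 libraries each) for KRT3 and CLU (black), 8 of the 9 tested pentose phosphate enzymes, TKT included (purple), and the aldehyde dehydrogenases (green). Filled points have an adjusted p of at most 0.05 and dotted lines mark a log2 fold change of 1 either way. TKT lies on the left, TALDO1 on the right, and ALDH1A1 is the highest aldehyde dehydrogenase with an open point.

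ALDH3A1 belongs to the aldehyde dehydrogenases, which clear reactive aldehydes formed under ultraviolet light. Of 19 listed members of this family, 15 were matched to a row and tested, and none was called by edgeR. None had an adjusted p under 0.05 in edgeR. An unadjusted p under 0.05 in edgeR was met by 5, with no count over all genes to set beside it. DESeq2 called 2, ALDH1A1 and ALDH1A2, among the 1190 genes it called in all. The median log2 fold change was −0.15. ALDH1A1, a corneal crystallin of the rabbit, was by far the most abundant of them. It had 1241, 1058 and 1163 CPM in fresh replicates 1, 2 and 3 and 2205, 1669 and 3120 CPM in preconditioned replicates 1, 2 and 3. Every preconditioned library lay above every fresh library, as for 17.9% of all tested genes. The log2 fold change was 1.01 (SE 0.23, 95% interval 0.48 to 1.55), and the adjusted p of 0.0505 from edgeR's quasi-likelihood test missed the cutoff by little. It ranged from 0.0013 to 0.17 over all alternatives.

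The levels of ALDH1A1 and TKT were also set side by side, as a description. In FPKM, ALDH1A1 was 0.820, 0.697 and 1.08 times the TKT level in fresh replicates 1, 2 and 3, and 3.26, 3.47 and 3.83 times that level in preconditioned replicates 1, 2 and 3. The groups of this ratio had to be separate, since TKT was lower and ALDH1A1 higher in every preconditioned library. ALDH2, ALDH7A1 and ALDH9A1, the next most abundant, had log2 fold changes of −0.27, 0.22 and 0.30, with adjusted p values of 0.21 to 0.32. A row described as ALDH3A2 but without a symbol, LOC127486773, was singled out after its values were seen. It had 152, 171 and 243 counts in the fresh libraries and 2, 9 and 3 counts in the preconditioned libraries. Its log2 fold change was −5.12 (SE 0.56, adjusted p = 0.017 in edgeR), and it was no longer called without any 1 of the fresh libraries (adjusted p 0.052 to 0.073) or with the replicate number as a block (0.062). By limma-trend on log2(FPKM + 1) the log2 fold change was −2.08. The gene ALDH3A2 itself had 16.0 to 22.0 CPM in fresh and 24.6 to 31.8 CPM in preconditioned libraries. Near-identical copies may have shared reads in the counting, which was not tested.

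Other enzymes and stress proteins that serve as crystallins in some eye tissue were examined as a further list. All 16 were matched, 15 were tested and edgeR called none at both cutoffs or by the adjusted p alone. In edgeR 3 had an unadjusted p under 0.05, and DESeq2 called 1, ALDH1A1, which is also on this list. The median log2 fold change was 0.07. GAPDH and ENO1 of glycolysis were the most abundant. GAPDH had 4780 to 6475 CPM in fresh and 7967 to 10126 CPM in preconditioned libraries, with a log2 fold change of 0.73 (SE 0.17, adjusted p = 0.052). ENO1 had a log2 fold change of 0.29 (SE 0.13, adjusted p = 0.17), and that of LDHB was −0.12 (SE 0.24).

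For CLU, the genes of its receptors, of complement and of other extracellular chaperones were examined. Of 21 names, 15 were matched and 10 tested, and none was called by edgeR. In edgeR 3 had an unadjusted p under 0.05, and DESeq2 called 1, CD59. The median log2 fold change was 0.08. LRP1, a large endocytic receptor, had 329 to 509 CPM in fresh and 292 to 513 CPM in preconditioned libraries. VLDLR, a lipoprotein receptor, had a log2 fold change of 0.28 (SE 0.23). CD59, which like clusterin blocks the membrane attack complex and was named after its values were seen, had 4.29 to 5.42 CPM in the fresh and 6.66 to 13.4 CPM in the preconditioned group. Its log2 fold change was 1.22 (SE 0.30, adjusted p = 0.059 in edgeR).

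Transcription factors were listed as possible regulators of corneal keratin genes such as KRT3, and their action on these genes was not tested. Of 19 names, 17 were matched and tested, and none was called by edgeR at both cutoffs, by its adjusted p alone or by DESeq2. An unadjusted p under 0.05 in edgeR was met by 3 (PAX6, ELF3 and TP63). The median log2 fold change was 0.00. PAX6, the master regulator of eye development, had 218, 201 and 174 CPM in the fresh replicates and 203, 376 and 459 CPM in the preconditioned replicates (log2 fold change 0.81, standard error 0.28, adjusted p = 0.11). ELF3, an epithelial factor of the ETS family, had 142 to 221 CPM in the fresh and 233 to 299 CPM in the preconditioned group (log2 fold change 0.68, adjusted p = 0.075). TP63 went the other way, with 246, 226 and 239 CPM in the fresh replicates and 183, 122 and 112 CPM in the preconditioned replicates. The TP63 groups did not overlap, but its log2 fold change of −0.77 did not reach the cutoffs (SE 0.19, adjusted p = 0.059 in edgeR). KLF5 and EHF had log2 fold changes of 0.16 and 0.23, with adjusted p values of 0.61 and 0.41.

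TKT and aldehyde dehydrogenases are also abundant in keratocytes, the cells of the corneal stroma. All 11 markers of keratocytes and fibroblasts were matched, and 1 of 10 tested, COL1A1, was called higher by edgeR. DESeq2 called COL1A1 and PTGDS, a keratocyte enzyme too low to pass the filter in edgeR, which had 5.10, 0.225 and 3.47 CPM in the fresh replicates and 0.213, 0.064 and 0.0988 CPM in the preconditioned replicates. Their summed level was 534 to 1148 CPM in fresh and 1299 to 2323 CPM in preconditioned libraries. Without COL1A1 it was 478 to 1039 and 779 to 1630 CPM, so that the groups overlapped. KERA, the marker most particular to keratocytes, had 2.53 to 8.81 CPM in fresh and 0.790 to 2.86 CPM in preconditioned libraries, opposite in direction to the sum, with overlap (log2 fold change −1.27, SE 0.63, adjusted p = 0.22 in edgeR). No listed stromal marker was at 0 in all libraries. Of 6 leukocyte markers, 5 were tested and none was called by edgeR, while CD68 had an unadjusted p under 0.05 and was the 1 called by DESeq2. They had a summed level of 96.0 to 132 CPM in the fresh and 123 to 311 CPM in the preconditioned group, most of it CD68. Melanocyte markers summed to at most 6.39 CPM. Of these, DESeq2 called TYRP1, a pigment enzyme with 0.290, 0.253 and 0.164 CPM in the fresh replicates and 0.122, 1.6 and 2.6 CPM in the preconditioned replicates, which edgeR did not call (adjusted p = 0.12). Of 6 vascular and corneal endothelial markers, 3 were tested and edgeR called none. DESeq2 called 1, SLC4A11, a transporter of the corneal endothelium, with 5.59, 5.71 and 9.38 CPM in the fresh replicates and 4.56, 2.85 and 2.11 CPM in the preconditioned replicates (log2 fold change −1.12, unadjusted p = 0.019, adjusted p = 0.099 in edgeR). Conjunctival markers summed to 2880 to 5134 CPM in the fresh and 2585 to 5102 CPM in the preconditioned group, and for markers of basal and limbal epithelium the sums were 11422 to 13612 and 10259 to 14736 CPM. The part of these cells in the level of TKT was not tested.

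**Figure D5:**
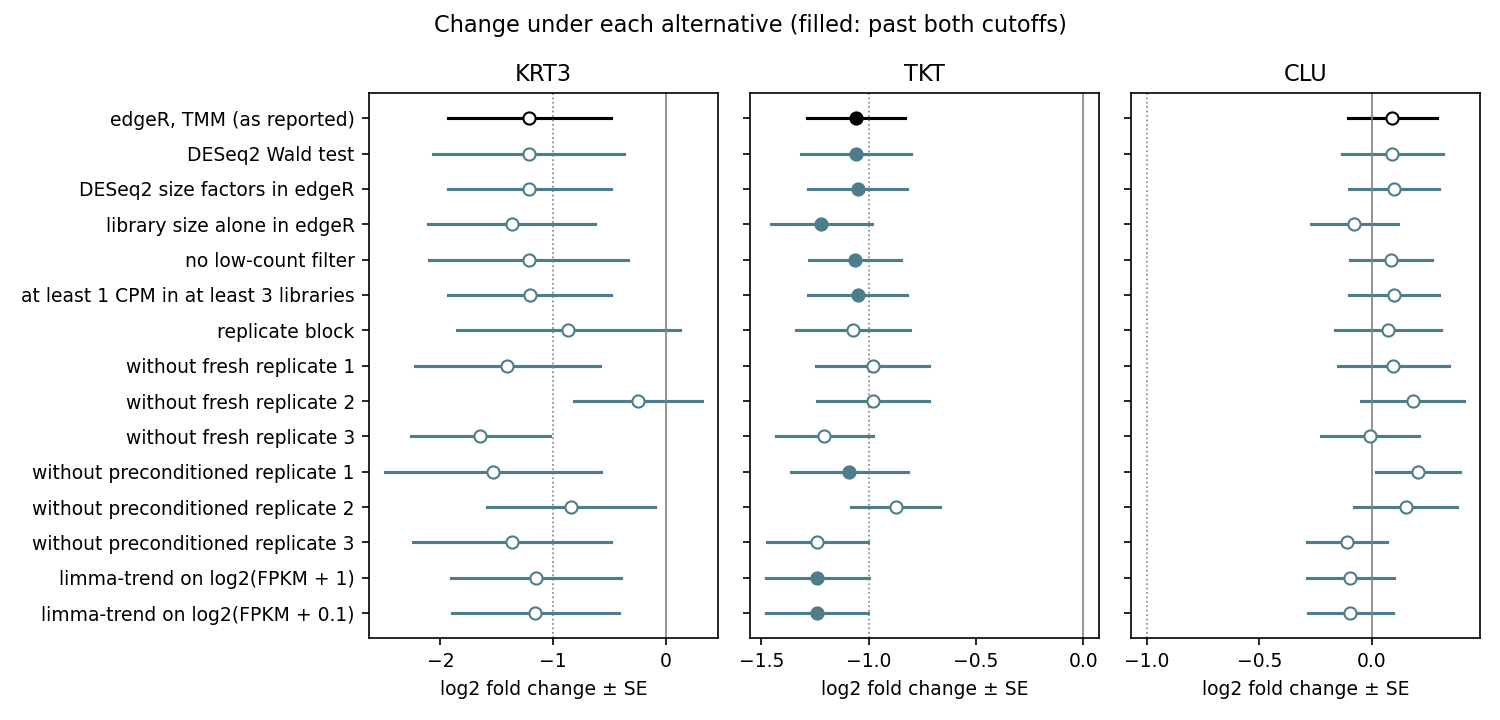
Log2 fold change of preconditioned over fresh (± standard error) for KRT3, TKT and CLU under edgeR with TMM (black) and under 14 alternatives. Filled points passed both cutoffs. TKT lies between −1.24 and −0.87 in all settings and is filled in 8 of 14 alternatives, KRT3 ranges from −1.65 to −0.25 and is never filled, and CLU changes sign.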

How the data were processed

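Gene expression was measured by RNA-seq (polyA RNA) in 3 fresh and 3 preconditioned libraries. The authors aligned reads with hisat2, counted them with htseq-count and deposited raw counts per gene, without normalization. The authors also deposited FPKM, which was checked to be the same counts scaled by library total and by a single length for each gene. How that length was defined, the strand setting, the annotation and the genome build are not given in the sources used here.

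Counts were tested in R 4.3.3 with edgeR 4.0.16 (filterByExpr, TMM, robust quasi-likelihood test, condition as the only factor). P values were adjusted over all 15029 tested genes by the Benjamini-Hochberg method. Standard errors came from the F statistic, and intervals use its degrees of freedom. Fits were tested on simulated counts. The members, lists and comparisons were chosen with earlier results of these data known. Named are the members, each list's called genes, else up to 4 of its most abundant, and the 3 nearest patterns to each member. Genes outside this rule are named as such or serve as markers. The aliases APOJ and ESE1 repeat CLU and ELF3 in the lists. Alternatives were DESeq2 1.42.0, other scalings and filters, a replicate block, leaving out each library, and limma 3.58.1 on log2 FPKM. With 3 libraries per group and at least 31952352 counts in each, the spread between libraries limits the precision. A few genes that this rule or the marker lists would name are not reported here.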

Additional observations from a re-analysis of the deposited data

How the results depend on the processing

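TKT kept its direction under all 14 alternatives and its call under 8. With the replicate number as a block its log2 fold change was −1.07 (adjusted p = 0.11), and leaving out each library gave −1.24 to −0.87. CLU lay on either side of 0. It was −0.077 with library size alone, −0.094 by limma-trend on log2(FPKM + 1) and −0.094 on log2(FPKM + 0.1), −0.01 without fresh replicate 3 and −0.11 without preconditioned replicate 3, and the other leave-one-out values reached 0.21. KRT3 stayed below 0 and uncalled under all 14 (adjusted p 0.19 to 0.83).

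The number of members called was 0 with the block and by glmTreat and 0 to 1 when each library was left out, against 1 otherwise. Over all genes, DESeq2 called 1190 genes in place of 344, library size alone 565, limma-trend on log2(FPKM + 0.1) 590, the adjusted p alone 763, glmTreat 24 and the block 30, and leaving out each library gave 14 to 1546, the most without preconditioned replicate 1 and the fewest without fresh replicate 2. With library size alone the median log2 fold change over every tested gene went from 0.01 to −0.16, and 423 of its 565 calls were lower, against 181 of 344.

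The 6 lists of keratins, enzymes, clusterin partners and transcription factors held 77 tested genes other than the members, and edgeR called 0. The lists of cell type and corneal differentiation markers are not part of this count. DESeq2 called 3 (ALDH1A1, ALDH1A2 and CD59), the fit with no low-count filter and the adjusted p alone called 2 each, and library size alone, the filter of 1 CPM in 3 libraries and limma-trend on log2(FPKM + 0.1) called 1 each. Leaving out each library gave 0 to 4. These alternatives for the lists, the ratios and the list genes were chosen after seeing the data. The labels do not say whether libraries with the same replicate number belong together. Their deviations from the group means correlated at −0.11 to −0.07 across genes. This cannot decide whether they were paired, since a shared factor may be small beside other variation. The block changed no other call of a member. The ratio of KRT3 to KRT12 was not run. The cause of these changes was not tested.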

Other observations

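LDHA, the muscle-type lactate dehydrogenase subunit and a row singled out after its values were seen, varied more between libraries than KRT3. It had 39.1, 324 and 982 CPM in fresh replicates 1, 2 and 3 and 2513, 1275 and 82.0 CPM in preconditioned replicates 1, 2 and 3. The libraries differed by up to 25.1-fold within the fresh and 30.7-fold within the preconditioned group, the groups overlapped, and the log2 fold change was 1.53 (SE 1.33, adjusted p = 0.47 in edgeR). Its lowest library was fresh replicate 1 and its highest preconditioned replicate 1, whereas KRT3 was lowest in preconditioned replicate 2 and highest in fresh replicate 2.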
